A study of Mus musculus with 4 samples.

Results

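Antisense RNA genes were examined among the transcripts that the authors listed as changed when the long non-coding RNA Mrhl was targeted in mouse embryonic stem cells. All genes whose type was given as antisense in the tables of lower and higher genes were taken, and Six3os1 was set aside, although its type there is processed transcript and not antisense. This gave 95 distinct symbols from 96 rows, since 1700034H15Rik was repeated with the same value, out of 1132 distinct symbols in the tables. The cells were E14tg2a, an established embryonic stem cell line of strain 129/Ola, grown on gelatine-coated dishes. They were transiently transfected for 48 hours with a scrambled shRNA (2 libraries) or with shRNA 4 against Mrhl (2 libraries). Another label gives the shRNA under the tag lentivirus. No selection of transfected cells is described, and their share is not given in the sources used here.

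An antisense gene is transcribed from the strand opposite to another gene, called here its sense partner. Such RNAs are known to act in different ways. Some, such as Tsix opposite Xist or Airn opposite Igf2r, silence their partner in cis, others share a divergent promoter with a coding gene and rise and fall with it, and many have no known function. Mouse symbols ending in os, for opposite strand, name the antisense gene after its partner.

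Each gene had 1 signed fold-change value for sh-Mrhl against scrambled, with negative values for lower genes. Whether it is a log2 or a linear value is not stated, no value in the tables was closer to 0 than 1.5, and neither values per library, replicate errors nor p-values were in the tables analysed. Depth is therefore unknown, and the statements below describe the authors' lists and are not tests. None of 7 embryonic stem cell markers, such as Pou5f1 and Nanog, was listed, beside 2.50% of all annotated coding symbols. Of 13 markers of other cell types 2 were listed, in opposite directions, Mesp1 at 2.12 and Col3a1 at -1.69 in the authors' deposited tables. Without expression levels neither the cell type nor the level of any antisense RNA could be checked. In a bulk culture, fewer cells of a type and less RNA per cell cannot be told apart.

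Of the 95 antisense genes, 60 were lower and 35 were higher in sh-Mrhl. The share of higher genes was 36.8%, against 36.3% of all 1131 listed symbols with 1 direction, 38.3% of the listed lincRNA genes and 37.3% of the listed protein-coding genes. The split of the antisense genes thus lay within 2 percentage points of each of these groups. The tables hold 3.24% of the 2959 antisense symbols annotated in GENCODE M21, 2.06% as lower and 1.18% as higher, beside 2.50% of protein-coding and 1.57% of lincRNA symbols. In the authors' deposited tables the median value was -1.91 for lower and 1.91 for higher antisense genes, and -1.91 and 1.94 for all listed genes. Sizes of at least 2 were reached by 28 lower genes (46.7%, against 44.4% of all lower genes) and by 10 higher genes (28.6%, against 33.2% of all higher genes).

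The most negative value in the authors' deposited tables was -3.91, for 1810062O18Rik on chromosome 14 from 20546079 to 20570687 (mm10, plus strand). Its start lies inside the first part of Ppp3cb, a calcineurin catalytic subunit gene, and its other end lies in Usp54, a gene of the ubiquitin-specific protease family. Gm28536 followed at -3.24 in the authors' deposited tables. It has 1 exon and lies within Stk25, a kinase gene. Gm15873 was at -3.07 in the authors' deposited tables and lies within Dnaaf3, which is needed to assemble the dynein arms of motile cilia. Tspan32os stood at -3.02, Gm15774, inside the gene of the translation elongation kinase Eef2k, at -2.90, and 1700109K24Rik, inside the gene of the splicing regulator Rbfox2, at -2.90 in the authors' deposited tables. Gm15910, within the methionine sulfoxide reductase gene Msrb3, was at -2.83, and Gm16796, opposite the prefoldin subunit gene Pfdn4, at -2.72 in the authors' deposited tables. None of the coding genes on the other strand of these 8 antisense genes was in the tables. Of all annotated coding symbols only 2.50% were, so this absence says nothing particular to these 8.

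The highest value belonged to Gm9962 on chromosome 7 from 57387272 to 57409941 (plus strand), at 3.38 in the authors' deposited tables. Its end overlaps the end of Gabra5, and its start is 84 bp from that of Gabrg3. Both encode subunits of the GABA-A receptor, and neither was listed. A830036E02Rik, opposite the keratin gene Krt12, was at 3.31, and 9630013K17Rik, inside Cox10, a gene needed for cytochrome oxidase assembly, at 2.90 in the authors' deposited tables. The value of 2700068H02Rik was 2.52 in the authors' deposited tables, and it overlaps no coding gene on the other strand. Gm17090 was at 2.48, Gm29237 at 2.26, Gm12454 at 2.24 and Gm11772 at 2.23 in the authors' deposited tables. They lie opposite the selenocysteine lyase gene Scly, the spectrin gene Sptbn1, the carbonic anhydrase gene Car9 and Bahcc1. None of these coding genes was listed, beside 2.50% of all annotated coding symbols, so this too says nothing particular to them. At the other end, the value closest to 0 among higher antisense genes was 1.51 for Gm13362, and among lower ones -1.54 for Gm26568, in the authors' deposited tables.

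**Figure D1:**
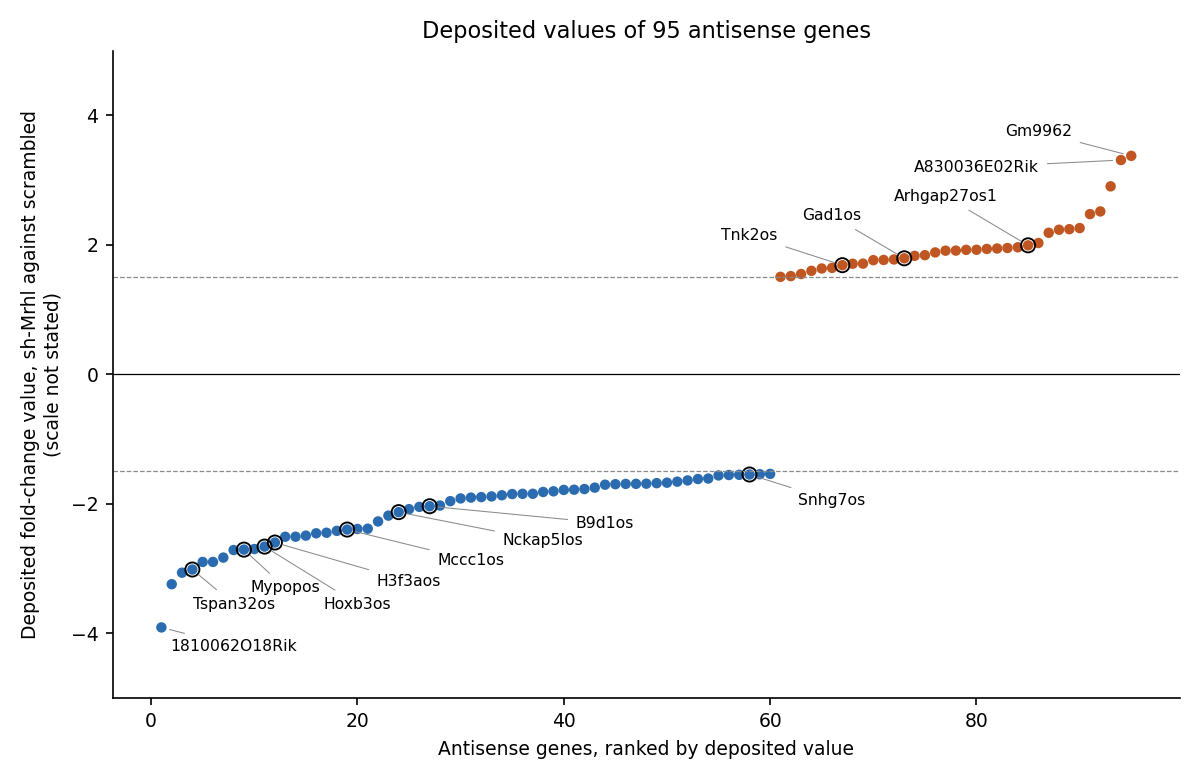
Deposited fold-change values of the 95 antisense genes (vertical axis, scale not stated), ranked from the most negative to the most positive; blue points are the 60 lower and orange points the 35 higher genes, and circled points are the 11 genes with a symbol ending in os. Dashed lines stand at 1.5 and -1.5, inside which the tables hold no value, and most points lie between these lines and a size of 3.

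No antisense gene named after a partner had that partner in the tables. There were 11 such genes, 8 lower and 3 higher, out of 258 annotated antisense symbols ending in os (4.26% listed). All but Snhg7os, whose namesake is a small nucleolar RNA host gene, are named after a coding gene. In the authors' deposited tables the lower ones after Tspan32os, whose partner encodes a tetraspanin, were Mypopos at -2.71, opposite a Myb-related transcription factor gene, and Hoxb3os at -2.66. H3f3aos, opposite a gene for the replacement histone H3.3, was at -2.60 and Mccc1os, opposite a subunit gene of the leucine-degrading enzyme methylcrotonoyl-CoA carboxylase, at -2.40 in the authors' deposited tables. Nckap5los stood at -2.13, B9d1os, beside a gene of the ciliary transition zone, at -2.04, and Snhg7os at -1.55 in the authors' deposited tables. The higher ones in the authors' deposited tables were Arhgap27os1 at 1.99, opposite a gene of a GTPase-activating protein, Gad1os at 1.79, opposite a gene of GABA synthesis, and Tnk2os at 1.69, opposite a tyrosine kinase gene. Each of the 10 coding namesakes was absent, which does not show that it was unchanged, because unlisted genes have no value here. Over all annotated coding symbols 2.50% were listed, 1.57% as lower and 0.930% as higher.

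Position gave nearly the same picture as names. A coding gene on the opposite strand overlapped 86 of the 95 antisense genes, 56 lower and 30 higher, and 14 of them overlapped more than 1 coding symbol. Together they had 100 distinct partner symbols, of which 2 were listed, Krt12 and Erich2 (2%, beside 2.50% of all annotated coding symbols). Counted by antisense gene, 2 of 86 (2.33%) had a listed partner, against 3.30% of the 2731 annotated antisense genes that overlap a coding gene. Seen from the coding side, 2.96% of coding symbols with an overlapping antisense gene were listed and 2.44% of those without. The members' shares lay near these backgrounds, which count all annotated genes, whether or not they are expressed in these cells. The deposited directions were opposed in 1 pair and shared in the other.

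In the first pair the antisense gene was higher and the coding gene lower. A830036E02Rik lies on chromosome 11 from 99416956 to 99425497 (plus strand) and Krt12, which encodes an acidic keratin known from corneal epithelium, from 99415666 to 99422259 (minus strand). The authors' deposited tables gave 3.31 for A830036E02Rik and -1.83 for Krt12. Each start lies inside the other gene, and the shared region takes in 5304 bp. Of the 6039 exonic bases of A830036E02Rik, 1007 (16.7%) lie in exons of Krt12 and 964 in its coding exons. The sequence below is shown because an RNA from either strand gives reads there. It is read on the strand of A830036E02Rik, with the 157 bases opposite a coding exon of Krt12 in capitals and bases opposite its introns in lower case.
A830036E02Rik, chr11:99419524-99419720, plus strand: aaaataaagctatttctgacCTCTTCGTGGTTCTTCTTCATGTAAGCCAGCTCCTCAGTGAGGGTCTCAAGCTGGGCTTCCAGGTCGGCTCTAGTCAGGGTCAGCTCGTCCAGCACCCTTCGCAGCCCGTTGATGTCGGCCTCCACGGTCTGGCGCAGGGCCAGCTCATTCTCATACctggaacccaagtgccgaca
The counting's strand setting is not given in the sources used here, so reads from such a stretch may have been counted for either gene, and their part in the values was not tested.

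In the second pair both genes were higher. Gad1os spans 73418 bp on chromosome 2 from 70489940 to 70563357 (minus strand), and Erich2, a gene of a glutamate-rich protein, lies within it from 70508819 to 70540884 (plus strand). The authors' deposited tables gave 1.79 for Gad1os and 2.61 for Erich2. Erich2 falls into an intron of Gad1os, and no exonic base is shared. Gad1, after which the antisense gene is named, encodes glutamate decarboxylase, the enzyme that makes GABA. Its start region overlaps that of Gad1os over 10286 bp, also with no shared exonic base, and it was not listed.

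Hoxb3os shared most of its exonic bases with coding genes. It lies on chromosome 11 from 96343072 to 96354691 (minus strand) and overlaps the homeobox genes Hoxb3 and Hoxb2, regulators of hindbrain and axial patterning. Exons of these genes cover 3203 of its 4201 exonic bases (76.2%). Neither Hoxb3 nor Hoxb2 was listed beside its -2.66 in the authors' deposited tables. Further along the cluster, Hoxb7, 52910 bp away, was at -3.32 and Hoxb8, 57757 bp away, at 2.44 in the authors' deposited tables. A list of antisense and related RNAs with described roles included Tsix, Airn, Kcnq1ot1 and Hotairm1. Of its 29 annotated genes, 3 were listed, beside 3.24% of annotated antisense, 1.57% of lincRNA and 2.50% of coding symbols. Besides Hoxb3os, the listed ones were Haglr, a divergent RNA of the Hoxd cluster, at 2.74, and Six3os1 at 1.55 in the authors' deposited tables. Neither is typed as antisense there. The list was chosen with earlier results of these data known, so this count is descriptive and was not tested.

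**Figure D2:**
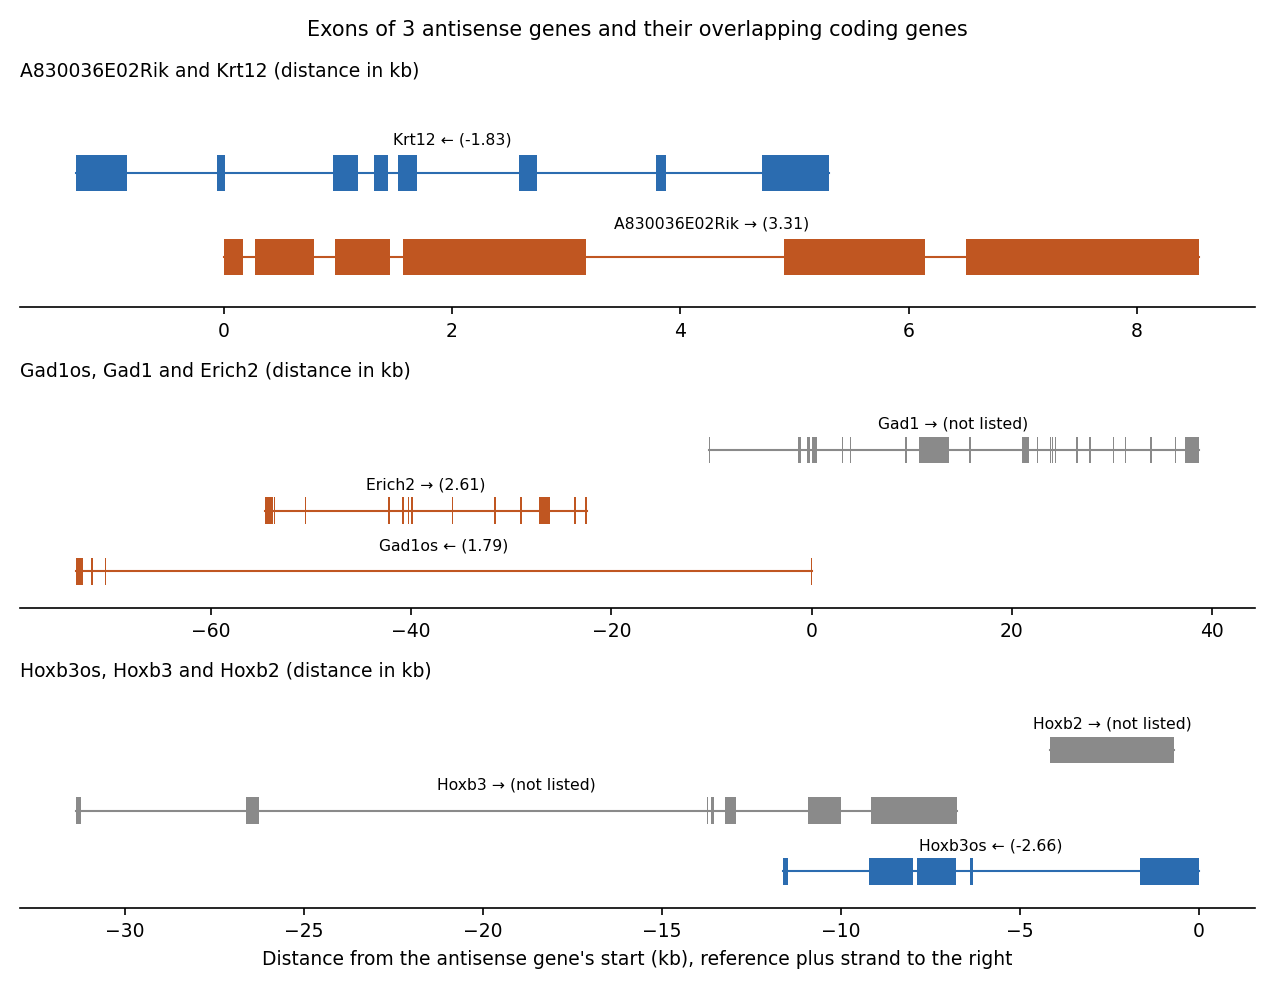
Exons (boxes) and spans (lines) of A830036E02Rik, Gad1os and Hoxb3os with their overlapping coding genes, as distance in kb from the antisense gene's start; arrows give the strand, numbers in brackets the deposited value, blue lower, orange higher and grey not listed. Krt12 and A830036E02Rik share exonic bases and have opposite signs (-1.83 and 3.31), Erich2 lies within an intron of Gad1os with the same sign (2.61 and 1.79), and Hoxb3 and Hoxb2 were not listed.

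The antisense genes were arranged in different ways with their partners. Taking for each the partner with the longest overlap, 47 lay wholly inside the coding gene, 33 of them lower and 14 higher. Overlapping starts were found for 19 (13 lower, 6 higher) and overlapping ends for 16 (9 lower, 7 higher). In 4 cases, 1 lower and 3 higher, the coding gene lay inside the antisense gene, and 9 had no overlapping coding gene (4 lower, 5 higher). The median antisense gene spanned 6393 bp and had 3 exons with 1594 exonic bases, against 5672 bp, 3 exons and 920 exonic bases for all annotated antisense genes. Lower antisense genes had a median of 1809 exonic bases and higher ones 1082; these differences were not tested.

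Most antisense genes shared few exonic bases with their partner. Exons overlapped in 67 of them, and the median share of exonic bases lying in coding-gene exons on the other strand was 12.3% over all 95. Over all annotated antisense genes this median was lower, at 5.69%, and the difference was not tested. The share exceeded 50% in 6, namely Hoxb3os, Arhgap27os1, Gm15976, Gm37885, Gm26568 and Gm16312. In Gm26568, opposite the epithelial gene Inava, and Gm16312, opposite Nudt8, every exonic base lies in a partner's exon. The other 28 shared none, and of these 18 were lower and 10 higher, with medians of -2.04 and 1.92 in the authors' deposited tables.

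**Figure D3:**
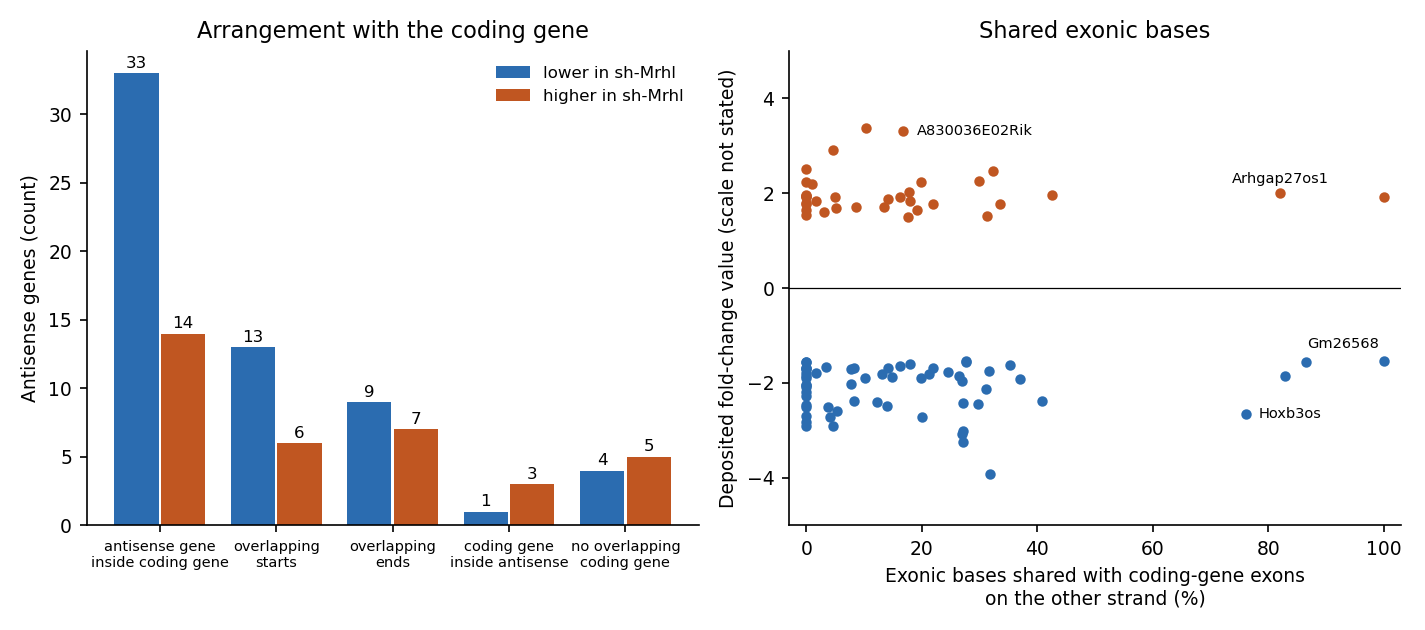
Left, counts of antisense genes by arrangement with the coding gene of longest overlap, lower in blue and higher in orange; right, deposited value (scale not stated) against the share of the antisense gene's exonic bases that lie in coding-gene exons on the other strand. Genes inside a coding gene are the most frequent group (33 lower, 14 higher), and 6 genes lie beyond a share of 50%.

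Some antisense genes start next to a coding gene that runs the other way, an arrangement known from divergent promoters. A coding start on the other strand lay within 1000 bp for 24 of the 95, 15 lower and 9 higher, and the median distance over all was 7673 bp. In 7 cases the starts stood back to back less than 150 bp apart with no shared base, and 4 of these antisense genes were lower and 3 higher. Their spacers were 62 to 127 bp long. The coding genes were Catsper3, a sperm calcium channel subunit gene, the DNA ligase gene Lig3, Gabrg3, B9d1, Fam129b, Tmem161b and the replication fork gene Donson. None of these 7 coding genes was listed, beside 2.50% of all annotated coding symbols, so their absence says nothing particular to these starts. In the authors' deposited tables the antisense sides were at 3.38 for Gm9962, 1.91 for Gm11423, 1.60 for 4930451E10Rik, -1.71 for A230107N01Rik, -1.77 for Gm10785, -2.04 for B9d1os and -2.05 for Gm13523.

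These spacers are the stretches from which the RNAs of both strands start. As examples 4 are shown, 2 of higher and 2 of lower antisense genes. They are read on the strand of the coding gene, from RefSeq promoter windows on GRCm38.p6, with the spacer in capitals. The 20 bases before it, in lower case, are the complement of the first bases of the antisense RNA, and the 20 bases after it are the first of the coding RNA.
Gm9962 and Gabrg3, chr7:57387169-57387291, minus strand: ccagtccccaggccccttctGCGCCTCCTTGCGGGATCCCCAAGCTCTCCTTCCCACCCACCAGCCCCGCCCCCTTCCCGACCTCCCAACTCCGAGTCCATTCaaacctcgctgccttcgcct
Gm11423 and Lig3, chr11:82781023-82781127, plus strand: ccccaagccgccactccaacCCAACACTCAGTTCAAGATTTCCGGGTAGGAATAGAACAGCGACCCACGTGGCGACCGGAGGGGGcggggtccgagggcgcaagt
B9d1os and B9d1, chr11:61505040-61505163, plus strand: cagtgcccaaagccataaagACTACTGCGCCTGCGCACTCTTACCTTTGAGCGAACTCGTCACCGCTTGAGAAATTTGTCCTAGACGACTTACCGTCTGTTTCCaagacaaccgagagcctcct
Gm10785 and Donson, chr16:91688751-91688917, minus strand: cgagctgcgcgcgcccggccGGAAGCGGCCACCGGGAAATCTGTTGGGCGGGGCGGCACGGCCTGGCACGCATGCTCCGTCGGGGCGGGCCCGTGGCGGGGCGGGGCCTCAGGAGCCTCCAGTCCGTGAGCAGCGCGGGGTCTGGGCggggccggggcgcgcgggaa
The GC content was 68.7% in the spacer of Gm9962, 58.5% in that of Gm11423, 51.2% in that of B9d1os and 77.2% in that of Gm10785. The spacers held 5, 5, 7 and 15 CpG dinucleotides in the same order. Those not shown held 1 (4930451E10Rik), 6 (Gm13523) and 9 (A230107N01Rik). Promoter windows under the antisense genes' own symbols were found for 38 of 95 (40%), too few for a comparison of promoter composition over all of them, which is void for that reason.

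**Figure D4:**
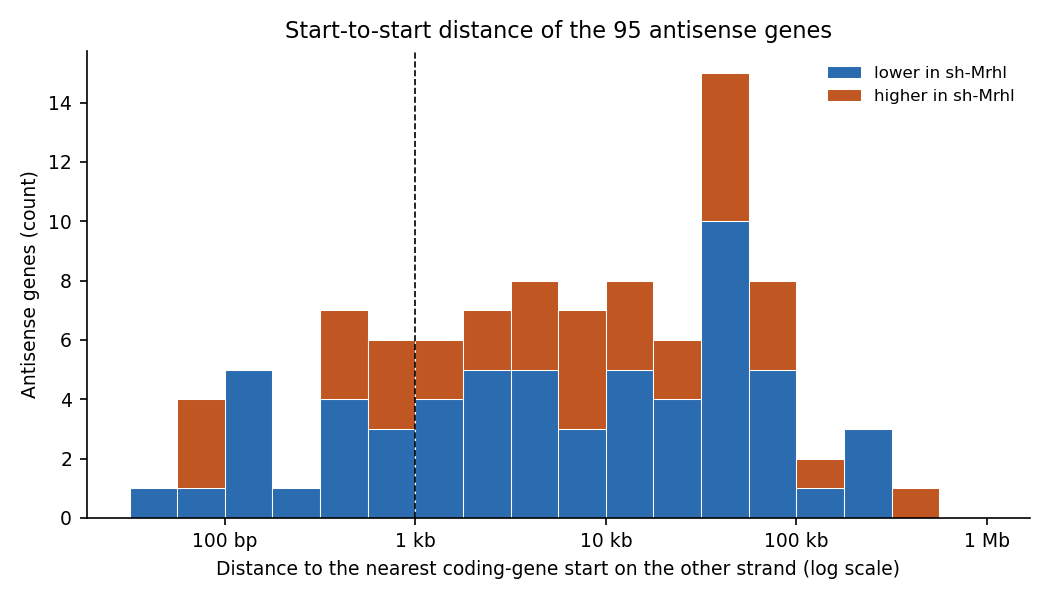
Distance from the start of each of the 95 antisense genes to the nearest coding-gene start on the other strand (horizontal axis, log scale), as stacked counts of lower (blue) and higher (orange) genes. The dashed line marks 1000 bp, and 24 genes lie to its left, 15 lower and 9 higher.

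The partners covered many kinds of proteins. Of the 100 partner symbols, 61 were put into 8 groups by what their proteins are known to do, with the members already known, so the groups are descriptive. None of the 61 was listed, beside the same 2.50%. The 2 listed partners, Krt12 and Erich2, were put into none of the groups. That absence therefore follows from the grouping and says nothing about these kinds of proteins. Partners among transcription factors, histones and chromatin proteins numbered 15, with 9 lower and 4 higher antisense genes. Besides Mypopos, Hoxb3os and H3f3aos they included Gm12359 at -2.39, opposite Msl1, a subunit gene of a histone acetyltransferase complex, and Gm11365 at -1.89, opposite the cell cycle factor gene E2f3, in the authors' deposited tables. Gm29100, opposite Twist2, a regulator of mesenchymal cells, was at 1.77 in the authors' deposited tables. Gm20628, opposite the histone genes Hist2h3b and Hist2h2bb, was at -1.96 and 1700095A21Rik, which shares no exonic base with the zinc finger gene Zfp981 opposite it, at -2.46 in the authors' deposited tables. These partners belong to gene families with close copies, and whether reads were shared with such copies was not tested. Kinase and phosphatase genes had 7 lower and 2 higher antisense genes, among them 4930500M09Rik at -2.42, opposite Uhmk1, and Gm20531 at 1.88, opposite the tyrosine phosphatase gene Ptpn6, in the authors' deposited tables.

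Genes of mitochondrial proteins and metabolic enzymes had 9 lower and 7 higher antisense genes. Platr31, a transcript named for its association with pluripotency, was at -1.69 opposite Tigar, a regulator of glycolysis, in the authors' deposited tables. Gm15884, opposite the prohibitin gene Phb2, was at 1.76 and Gm30934, opposite the ATP synthase subunit gene Atp5l, at 1.92 in the authors' deposited tables. Gm15976, which overlaps 2 overlapping gene models annotated as Atp5o, stood at -1.85 in the authors' deposited tables. Gm10785 stood at -1.77 there. It lies inside the longer of these models with no shared exonic base, and shares 444 exonic bases with Cryzl1. All 6 antisense genes opposite genes of RNA-binding proteins were lower. Besides 1700109K24Rik and Gm12359, which also overlaps the exon junction complex gene Casc3, these were Gm29202 at -1.90 opposite Igf2bp1, Gm28085 at -1.85 opposite the exoribonuclease gene Xrn1, Gm37850 at -1.68 opposite Rbm5 and B930036N10Rik at -1.61 opposite Alyref2 in the authors' deposited tables. All 3 opposite DNA repair genes were higher, with Gm11832 at 1.83 opposite Rad54b, Gm17210 at 1.55 opposite Parg and Gm16133 at 1.52 opposite Fancc in the authors' deposited tables. With 63.7% of all listed symbols lower, groups of 6 and 3 with 1 direction are small, and no test was made on them. Genes of the ubiquitin pathway had 3 lower and 1 higher, those of cilia 1 lower and 2 higher, and those of receptors, channels and transporters 2 lower and 3 higher antisense genes.

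Other listed genes lay within 100 kb of 20 of the 95 antisense genes (21.1%), beside 19.2% of all annotated antisense genes. Among the 22 pairs so formed, 12 had the same direction and 10 opposite ones. Pairs of 2 antisense genes are counted from both sides, and all of these had the same direction. The pairs with Erich2, Krt12, Gm38375 and BC106179 are overlaps that are also given as partners. How often pairs among all listed genes share a direction was not computed, so the split cannot be judged. Gm26781 and Gm26568, 34336 bp apart on the plus strand of chromosome 1, were at -1.92 and -1.54 in the authors' deposited tables. Gm15884 and Gm20531, 13337 bp apart on opposite strands of chromosome 6, were at 1.76 and 1.88 in the authors' deposited tables. Gm16796 at -2.72 lies 2212 bp from Cyp24a1, the gene of the vitamin D-degrading enzyme, which was at 1.85 in the authors' deposited tables. Gm11725 at -1.64 lies 5707 bp from Tmem235 at -2.03, and Gm10425 at -1.85 lies 11523 bp from Tnfaip2 at -1.68 in the authors' deposited tables. Neighbours on the other side of the sign included Vwa3a, 59767 bp from Gm15774 and higher, in the authors' deposited tables.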

How the data were processed

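The members and gene lists were chosen with earlier results of these data known. The authors' deposited tables give 1 signed fold-change score per gene and no values per library. Per the submitters' processing notes, TopHat2, Cuffdiff and mm10 were used. Their versions, the annotation, strand setting and threshold are not stated. Symbols were reduced to 1 per table, and Tex16, in both tables, was left out. All 95 antisense symbols were found in GENCODE M21 on GRCm38 (mm10), 94 with the same type. A sense partner is a protein-coding gene on the opposite strand whose body overlaps the antisense gene. Partners were matched to the tables by symbol. Exons of all transcripts of a gene were merged. Planned count tests could not be run. Named genes are the 8 largest values in each direction, symbols ending in os, genes with a listed partner and listed members of the antisense RNA list; others were named after their values were seen. Overlap code was tested on simulated data. Alternatives changed the partner definition, the minimum size (2) and the treatment of unnamed gene models. Python 3.11.15, pandas 2.3.3, numpy 2.4.6 and matplotlib 3.10.9 were used.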

Additional observations from a re-analysis of the deposited data

How the results depend on the processing

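With values of at least 2 in size, 28 antisense genes were lower (46.7%, against 44.4% of all lower genes). The higher ones were 10 (28.6%, against 33.2% of all higher genes). Leaving out symbols of the Gm or Rik kind kept 11 lower ones and 3 higher ones, with medians of -2.13 and 1.79. All listed symbols were not counted in this way, so the changed split cannot be judged. With the antisense type also required in the reference annotation, 60 and 34 remained, since Gm27239 is a lincRNA gene there. The number with a listed sense partner, 2 of 86 as reported (2.33%), was 2 of 92 (2.17%) when starts within 5 kb were allowed. It was 1 of 67 (1.49%) when exons had to overlap and 1 of 95 (1.05%) with the nearest coding gene on either strand, Krt12 each time. With partners of any gene type it was 4 of 87 (4.6%), adding the pairs of Gm28085 with the TEC model Gm38375 and of B630019A10Rik with BC106179. The share over all annotated antisense genes was computed only for the reported definition, so neither the falls nor the rise can be judged. With values of at least 2 in both genes it was 0. Symbols ending in as or ot added no listed namesake to the 0 found. These changes follow from which genes each definition admits. No paired analysis was possible because each gene has 1 deposited value and none per library. Runs without a replicate, and any limit set by depth, need such values too.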

Other observations

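Antisense genes by other labels were also in the tables. Foxl2os, named after the ovarian forkhead factor gene Foxl2 and typed as a processed transcript, was at -3.02 in the authors' deposited tables, and Foxl2 was not listed. Lrp8os3, typed as a bidirectional promoter RNA and named after the reelin receptor gene Lrp8, was at -1.66 in the authors' deposited tables, and Lrp8 was not listed either. Six3os1, typed as a processed transcript, was at 1.55 in the authors' deposited tables. Its namesake Six3, a homeobox gene of forebrain and eye development, was at 4.74 there, in the same direction. Thus 1 of these 3 had a listed namesake, beside 2.50% of all annotated coding symbols. That 1 is the gene set aside at the start, and 3 genes are too few for a comparison. Gm26724, a lincRNA gene in the tables, and D630044L22Rik, a protein-coding gene there, are antisense genes in GENCODE M21 and stood at -2.73 and 2.94 in the authors' deposited tables. With partners of any type, Gm28085 at -1.85 lay opposite Gm38375 at -1.52, and B630019A10Rik at 1.94 opposite BC106179 at -1.52 in the authors' deposited tables.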
